A study of Mus musculus with 4 samples.

Results

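Rab GTPases are the small GTP-binding proteins that give each membrane compartment of a cell its identity, and brain septal tissue of stressed mice was examined for how the family is composed and whether it differs without the T cell receptor beta chain. Members were all rows whose symbol is Rab followed directly by a digit, leaving out interacting proteins, GTPase-activating proteins and similar names. The rule found 58 of the 15409 gene rows, of which 55 encode a Rab GTPase. The other 3 are Rab3il1, an exchange factor, and the antisense RNAs Rab10os and Rab26os.

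There were 4 RNA-seq libraries, 2 from TCRb-/- mice and 2 from wild-type (WT) mice, and each was a pool of tissue from 4 to 5 animals. The batch label puts 1 library of each genotype in experiment 1 and 1 in experiment 2, and replicate numbers here follow the experiment. Both genotypes went through the same treatment, 3 days of restraint in a DecapiCone (a plastic cone) for 30 min, and tissue was taken 1.5 h after the last session, so there was no unstressed group. RNA came from a cleared lysate without nuclei. The sources used here give neither the age nor the strain of the mice. Mice without this chain form no alpha-beta T cells.

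A Rab protein switches between a GTP-bound form that sits on a membrane and recruits effectors, and a GDP-bound form that is extracted into the cytosol. Exchange factors load GTP, GTPase-activating proteins speed its hydrolysis, and a prenyl group anchors the protein in the membrane. In neurons Rab proteins are best known for priming synaptic vesicles and for moving endosomes along axons and dendrites.

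Libraries held between 19988137 and 26210790 reads. Trbc2, a constant segment of the deleted receptor chain, had 0 reads in both TCRb-/- libraries and 169 and 86 reads in the WT libraries. Each of the 7 septum markers was detected, with a summed level of 390 and 406 CPM (reads per 1e6 reads of the library) in TCRb-/- and 354 and 424 CPM in WT replicates 1 and 2. By the limma test described below, 3 of these 7 (Zic1, Zic4 and Nts) were higher in experiment 2, against 8.95% of all genes. The most abundant of them, Sst (mean 184 CPM), differed by 0.02 on the log2 scale. The experiments also differed in marker genes of neighbouring tissue. The summed level of 8 striatum markers was 3828 CPM in TCRb-/- and 3402 CPM in WT in experiment 1, against 847 and 1884 CPM in experiment 2. The summed level of 8 choroid plexus markers was 1337 and 730 CPM in experiment 1, against 4772 and 2788 CPM in experiment 2. TCRb-/- replicate 2 was the lowest library for the first list and the highest for the second. In pooled tissue, fewer cells of a type and less RNA per cell cannot be told apart.

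Rab transcripts made up a similar part of the RNA in each library. Their sum was 8796 and 9504 CPM in the TCRb-/- pools of experiments 1 and 2, and 9334 and 9548 CPM in the WT pools, which is 0.880% to 0.955% of all reads. TCRb-/- replicate 1 was the lowest library and the other 3 lay close together. Of the 58 members, 45 had a mean of at least 10 CPM and 25 a mean of at least 100 CPM, and the 10 most abundant took 57.6% to 61.3% of the family's reads. The highest library exceeded the lowest by less than 1.2 times in 26 members, by less than 1.5 times in 47 and by less than 2 times in 56. The exceptions to the last were Rab20 (2.88 times) and Rab37 (2.74 times). These counts were not taken over all genes. The steadiest was Rab7, the late endosome and lysosome Rab, at 417, 427, 428 and 418 CPM. These 4 values are TCRb-/- replicate 1, TCRb-/- replicate 2, WT replicate 1 and WT replicate 2, the order used for all values below.

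Levels of different genes were compared as CPM per kb of exon, averaged over the 4 libraries. Rab3a, the main Rab of synaptic vesicles, was the highest at 591 CPM per kb. It was followed by Rab2a (359 CPM per kb) and Rab1b (188 CPM per kb), which act between the endoplasmic reticulum and the Golgi. The Golgi Rab6a (165 CPM per kb) and the late endosomal Rab7 (162 CPM per kb) came next, and Rab1b, Rab6a and Rab7 overlapped in their library values. The lowest were Rab43 at 0.201, Rab39 at 0.707, Rab7b at 0.726, Rab38 at 0.966 and Rab37 at 1.50 CPM per kb. Rab38, which is known from pigment granules, was read at 1.50, 1.75, 1.18 and 1.65 CPM. The antisense RNA Rab26os had a mean of 0.891 CPM and was the only member below the level needed for testing (a mean of 1 CPM).

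Exons of 22 members overlap those of another gene in the annotation, and the sources used here do not say whether counting used strand. The overlap with 1 gene covers over 50% of the exons in 4 members: Rab43 (75.4%), Rab4b (65.0%), Rab24 (62.4%) and Rab2b (59.3%). Their values are uncertain for that reason. Rab10 and Rab10os share 143 bases on opposite strands, and 25.6% of the exon bases of Rab20 overlap the noncoding E230013L22Rik on the other strand.

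**Figure D1:**
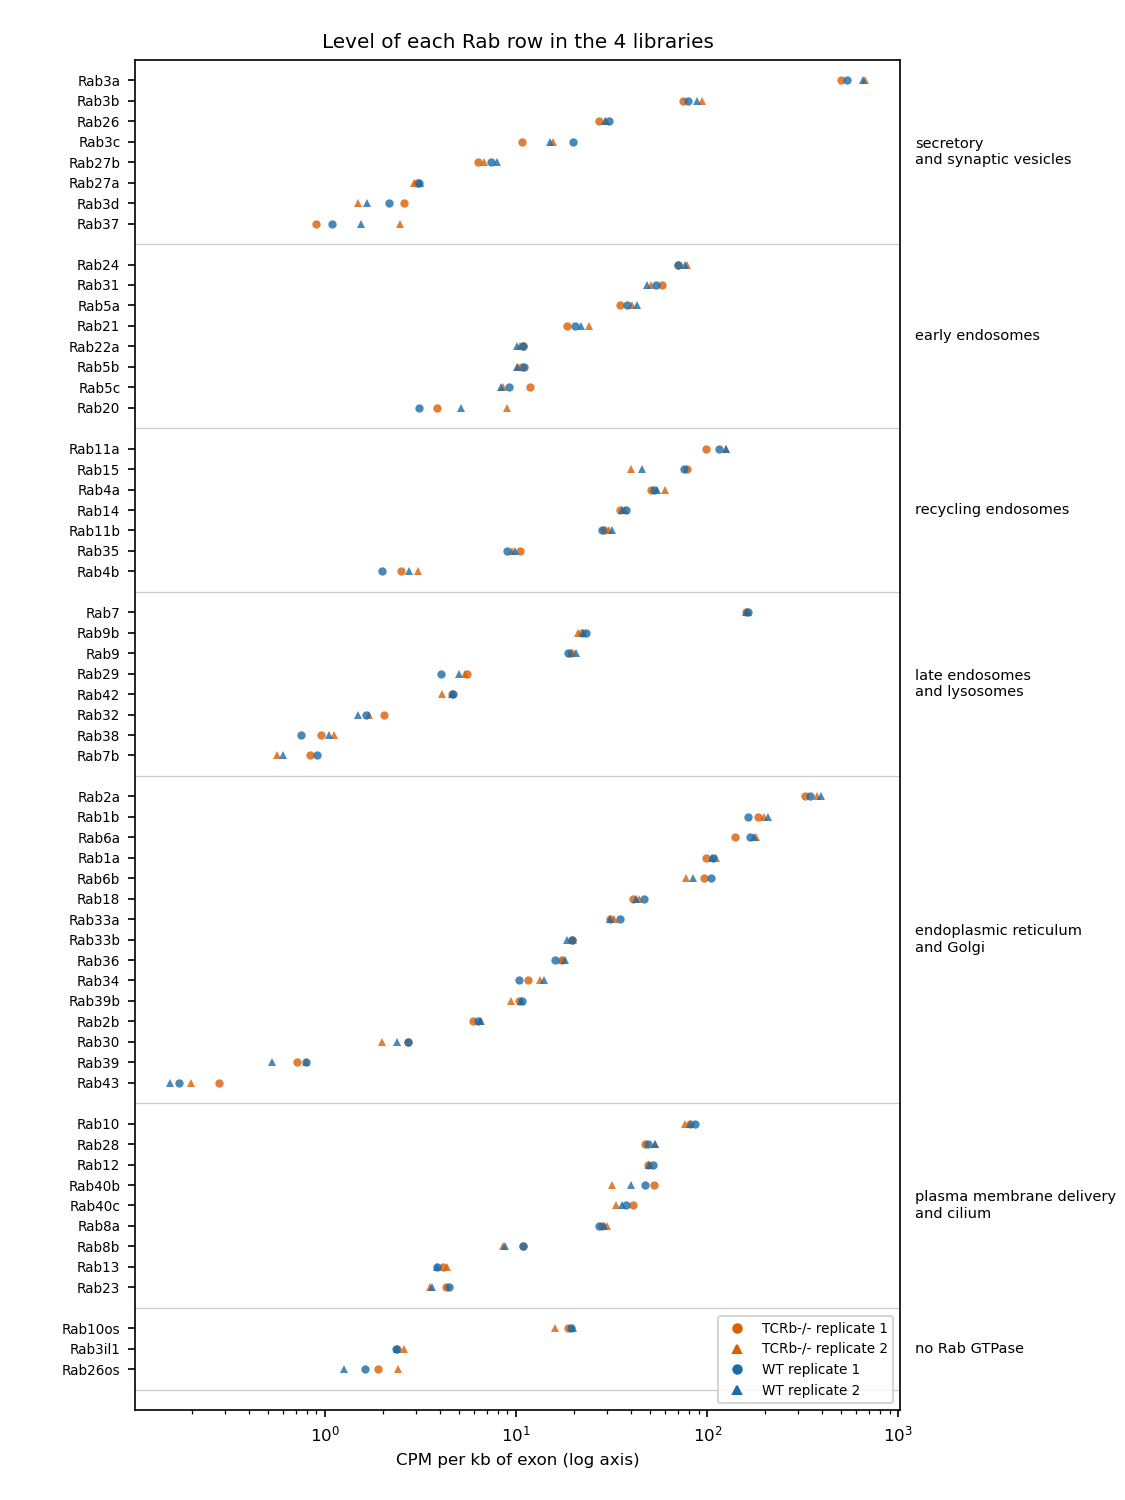
Level of each of the 58 Rab rows in CPM per kb of exon (log axis), one point per library, grouped by the membrane on which the protein acts. Rab3a stands at the top with a mean of 591 CPM per kb and Rab43 at the bottom with 0.201, and most members' 4 points lie close together.

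Among the secretory and synaptic Rabs, Rab3a was read at 1111, 1492, 1200 and 1461 CPM. Rab3b, a paralogue in the same vesicle cycle, was read at 263, 330, 278 and 312 CPM. Both were higher in the 2 libraries of experiment 2. Rab3c, a further vesicle paralogue, was read at 130, 189, 238 and 182 CPM, and its genotypes overlapped. Rab3d, better known from exocrine and other secretory granules, was read at 10.9, 6.25, 9.04 and 6.98 CPM. Rab27b and Rab27a tether secretory vesicles and lysosome-related organelles; Rab27b was read at 67.3, 72.4, 79.1 and 84.7 CPM and Rab27a at 11.7, 11.3, 12.0 and 12.2 CPM. Both WT libraries exceeded both TCRb-/- libraries in both genes. Rab26, which has been tied to synaptic vesicle clusters and autophagy, was read at 77.3, 83.8, 86.8 and 82.8 CPM, and Rab37, a Rab of secretory granules, at 4.80, 13.2, 5.80 and 8.18 CPM.

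For the early endosome, Rab5 isoforms recruit the fusion machinery. Rab5a was read at 184, 212, 200 and 227 CPM. Rab5b was read at 44.9, 42.7, 46.2 and 42.6 CPM and Rab5c at 25.7, 18.8, 20.2 and 18.3 CPM. Experiment 2 was higher for Rab5a and lower for Rab5b and Rab5c, without overlap, as in 67.3% of all genes tested. Rab21, which carries integrins into endosomes, was read at 93.4, 122, 102 and 111 CPM. Rab20, an endosome and phagosome Rab, was read at 5.37, 12.4, 4.31 and 7.16 CPM, with TCRb-/- replicate 2 above all other libraries. The other 3 members of this group, Rab22a, Rab24 and Rab31, had means between 76.3 and 201 CPM, and their highest library exceeded their lowest by at most 1.2 times.

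Recycling to the cell surface runs through Rab4 and Rab11. Rab4a was read at 88.7, 106, 92.1 and 95.9 CPM and Rab11a at 294, 375, 346 and 375 CPM. Of their paralogues, Rab11b was read at 176, 189, 172 and 195 CPM and Rab4b at 4.92, 6.0, 3.93 and 5.41 CPM. All 4 were higher in experiment 2 in both genotypes. Their experiments did not overlap, as in 67.3% of all genes tested in either direction, and none of the 4 passed the test below. Rab15, a neuron-enriched Rab of early and recycling endosomes, stood apart from the rest of this group by its spread, at 361, 183, 348 and 210 CPM, with both libraries of experiment 2 well under both of experiment 1. The remaining Rab14 and Rab35 varied by at most 1.17 times between libraries.

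Of the late endosome and lysosome Rabs, Rab29 and the related Rab32 and Rab38 bind the kinase LRRK2 or act on lysosome-related organelles. Rab29 was read at 8.13, 7.90, 5.95 and 7.38 CPM and Rab32 at 4.76, 3.95, 3.82 and 3.49 CPM. Both TCRb-/- libraries exceeded both WT libraries in Rab29 and in Rab32. Rab7b, a paralogue of Rab7, was read at 3.86, 2.60, 4.20 and 2.77 CPM. Rab9, Rab9b and Rab42 made up the rest of this group and varied by at most 1.14 times between libraries.

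On the secretory pathway, Rab1 isoforms act in transport from the endoplasmic reticulum to the Golgi. Rab1a was read at 372, 421, 408 and 401 CPM and Rab1b at 417, 450, 371 and 469 CPM. Rab2a was read at 694, 797, 734 and 838 CPM, while Rab2b was read at 24.7, 27.1, 26.2 and 27.0 CPM. Both libraries of experiment 2 exceeded both of experiment 1 in Rab2a, and the difference did not pass the test below. Rab6 isoforms act in transport at the Golgi. Rab6a was read at 523, 669, 625 and 651 CPM and the brain-enriched Rab6b at 485, 389, 525 and 424 CPM. In both genotypes Rab6a was higher and Rab6b lower in experiment 2. Rab34, a Golgi and cilium Rab, was read at 27.4, 31.9, 24.5 and 33.1 CPM, and Rab39b, a neuronal Rab, at 35.0, 32.1, 36.5 and 35.9 CPM. Rab43, a Golgi Rab, was read at 1.55, 1.1, 0.954 and 0.850 CPM and Rab39 at 2.12, 2.35, 2.37 and 1.57 CPM. The other 5 members here, Rab18, Rab30, Rab33a, Rab33b and Rab36, had means between 23.5 and 297 CPM and varied by at most 1.37 times.

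Rabs of plasma membrane delivery and the cilium include Rab8a, Rab8b and Rab10, which are substrates of LRRK2. Rab10 was read at 286, 270, 303 and 285 CPM, Rab8a at 131, 140, 126 and 135 CPM, and Rab8b at 51.6, 40.6, 51.7 and 41.3 CPM. Experiment 2 was lower for Rab10 and Rab8b and higher for Rab8a in both genotypes, without overlap between the experiments, as in 67.3% of all genes tested. Rab13, a tight junction Rab, was read at 9.56, 10.0, 8.85 and 8.90 CPM, and Rab23, a regulator of Hedgehog signalling, at 35.6, 29.3, 37.0 and 30.1 CPM. Rab40b, which binds a ubiquitin ligase complex, was read at 106, 64.0, 94.4 and 80.0 CPM. Rab12, Rab28 and Rab40c had means between 114 and 230 CPM. Rab10os, which encodes no GTPase, was read at 114, 98.2, 119 and 122 CPM.

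Where a subfamily has several members, 1 paralogue often held most of the subfamily's CPM per kb in all 4 libraries. Rab3a held 84.3% to 86.2% of the Rab3 total over the 4 libraries, Rab3b 11.6% to 12.7%, Rab3c 1.83% to 3.08% and Rab3d 0.191% to 0.441%. Rab2a held 98.2% to 98.4%, Rab7 99.4% to 99.7% over Rab7b, and Rab4a 95.2% to 96.3%. Others were less one-sided. Rab11a held 77.4% to 80.4%, Rab8a 71.2% to 77.8%, Rab27b 67.7% to 71.7%, Rab5a 60.9% to 69.9%, Rab33a 61.3% to 64.2%, Rab1b 60.3% to 66.2%, Rab9b 52.1% to 55.4% and Rab40b 49.0% to 56.2%. The experiments did not overlap in several of these shares. Rab6a was at 59.3% and 61.6% in experiment 1 and at 69.9% and 67.4% in experiment 2 (TCRb-/- and WT in each case), and Rab8a at 72.0% and 71.2% against 77.8% and 76.8%. Rab5a was at 60.9% and 65.2% against 68.2% and 69.9%, and Rab40b at 56.2% and 55.6% against 49.0% and 52.8%. The shares of Rab3a, Rab2a, Rab7, Rab4a and Rab9 did not overlap between the experiments either, by smaller margins. The share of Rab3c was highest in WT replicate 1. The genotypes overlapped in all subfamilies but 2. Rab27b held 67.7% and 69.9% in TCRb-/- against 70.6% and 71.7% in WT, and Rab33a held 61.3% and 62.1% against 64.2% and 62.7%. These shares were not tested, and no such count was made over other gene families.

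**Figure D2:**
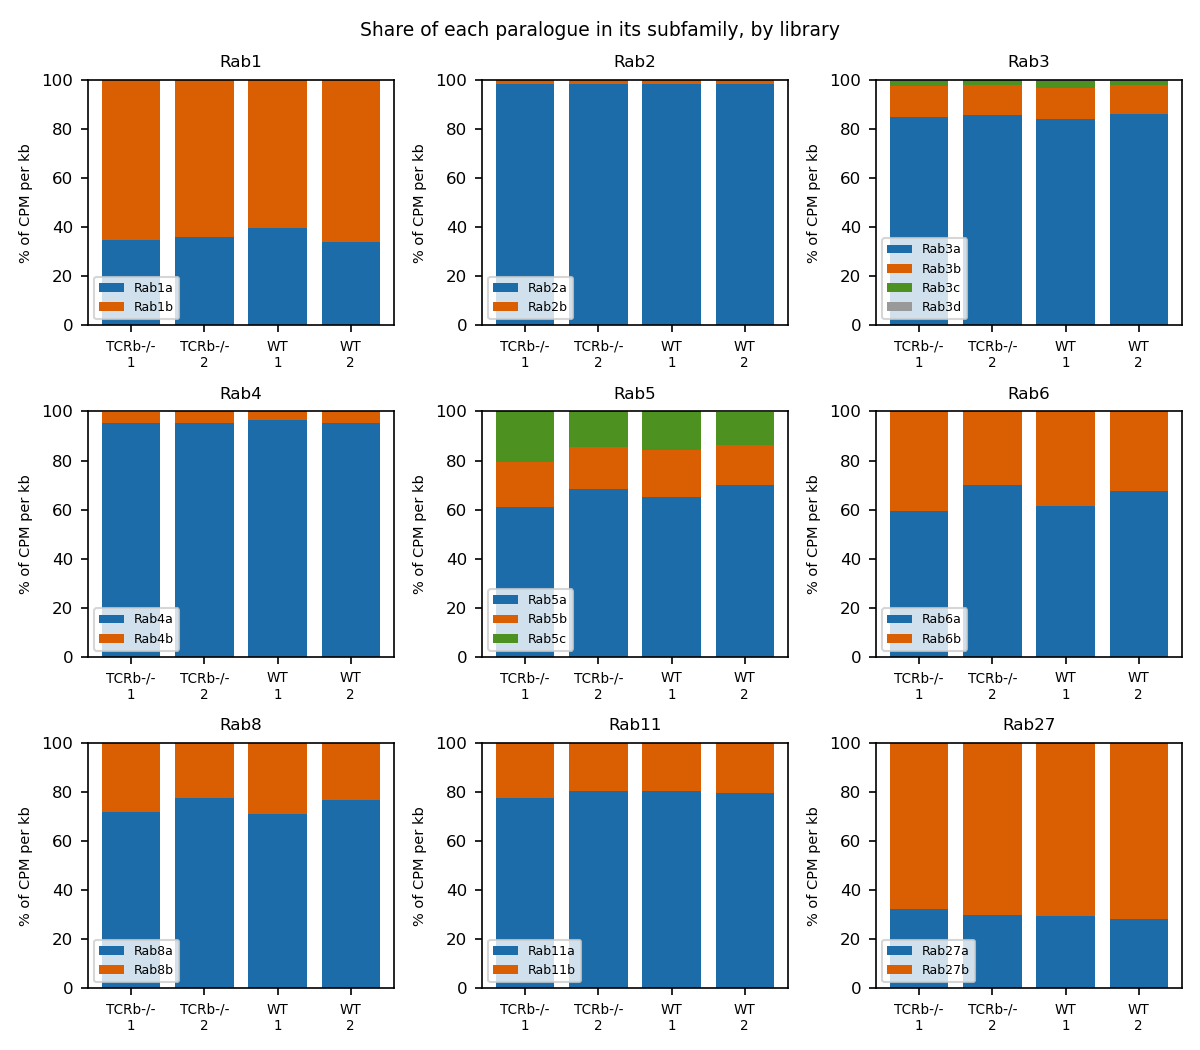
Share of each paralogue in its subfamily's CPM per kb, in percent, with one stacked bar per library. Rab3a takes 84.3% to 86.2% of the Rab3 bars in all 4 libraries, and Rab6a is higher in both replicates 2 than in both replicates 1.

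The first comparison asked whether loss of TCRb changed the family in stressed septal tissue. No member passed the test. With limma on log2(CPM + 1), a scale that shrinks differences of weakly expressed genes, 0 of 57 tested members had an adjusted p (Benjamini-Hochberg over 13912 genes) under 0.05, and 0 also had an unadjusted p under 0.05. The same fit called 0% of all genes, and 0.309% had an unadjusted p under 0.05. With precision weights (voom) the count was also 0. With 2 libraries a genotype, an exact permutation test of 1 gene cannot go below p = 0.333. In the limma and voom fits above genotype was the only term, so differences between the experiments counted as spread and could raise the p-values. A p above 0.05 in them does not show that a gene was unchanged. When the experiment was entered as a block, 0 members passed, against 0.0144% of all genes, and 2 members (Rab27b and Rab20) had an unadjusted p under 0.05, against 5.64% of all genes.

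The differences were small, as they were over all genes. The median over the 57 members was -0.01 on the log2 scale (TCRb-/- minus WT), against 0.00 over all genes tested. Of the 57 members, 51 differed by less than 0.2 in either direction, against 11632 of all 13912 genes. The range ran from -0.41 for Rab3c to 0.49 for Rab20. By membrane, the medians lay between -0.05 for the secretory and synaptic group and 0.02 for the early endosome group. The 2 genotypes did not overlap in 11 members (19.3%), against 17.8% of all genes tested. Both TCRb-/- libraries were higher in 5 (Rab43, Rab29, Rab32, Rab13 and Rab33b), against 9.76% of all genes, and lower in 6 (Rab27b, Rab10os, Rab39b, Rab27a, Rab9b and Rab12), against 8.04% of all genes.

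Of these 11, Rab27b had a log2 difference of -0.23 in experiment 1 and -0.22 in experiment 2, and the fitted difference was -0.23 ± 0.13 (SE; limma adjusted p = 1.00, and 0.848 with the experiment as a block). Its mean was 69.9 ± 3.59 CPM in TCRb-/- and 81.9 ± 3.97 CPM in WT (SD, n = 2 pools each). Rab29 differed by 0.39 in experiment 1 and 0.09 in experiment 2. Rab43 differed by 0.38 and 0.18, from levels near 1 CPM. Rab43 and Rab7 lie on chromosome 6, where the annotation puts them 46.2 and 46.5 Mb from Trbc2, and the part of linked DNA around the deleted gene was not tested. Rab7 had a fitted difference of -0.00 ± 0.12 (SE).

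The members with the widest fitted differences were not the same in the 2 experiments. Rab20 was higher in TCRb-/- by 0.26 in experiment 1 and by 0.72 in experiment 2. Without TCRb-/- replicate 2 its fitted difference was -0.05, against 0.49 with all libraries. That fit set TCRb-/- of experiment 1 against WT of both experiments, so the difference between the experiments entered it. Rab3c was lower in TCRb-/- by 0.87 in experiment 1, a log2 difference of -0.87, and differed by 0.06 in experiment 2. The sign was the same in both experiments in 27 of 57 members (47.4%), against 51.6% of all genes tested. As a description, Spearman's rho between the differences of the 2 experiments was 0.03 over the 57 members and 0.05 over all genes tested. The points of each experiment share their 2 libraries.

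**Figure D3:**
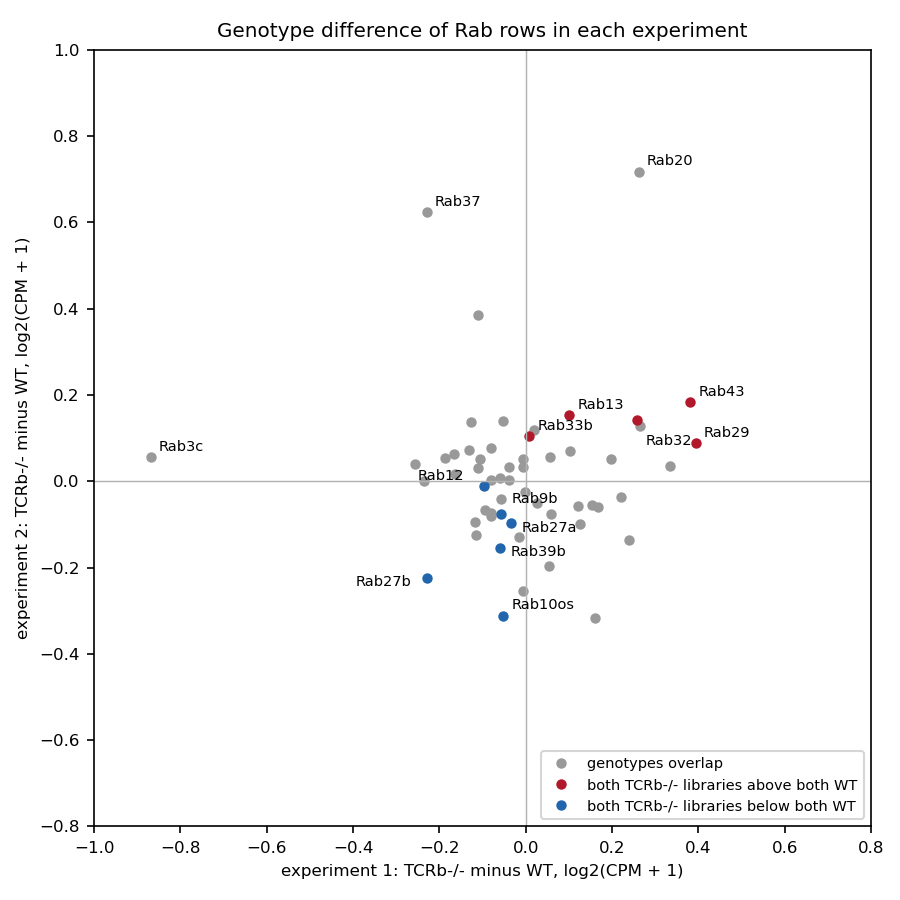
Log2 difference in CPM + 1 between TCRb-/- and WT in experiment 1 (horizontal) and experiment 2 (vertical), one point per tested Rab row, coloured where both libraries of one genotype exceed both of the other. Most points lie near 0, Rab3c departs in experiment 1 (-0.87), and Rab37 (0.62) and Rab20 (0.72) depart in experiment 2.

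The second comparison set experiment 2 against experiment 1, the batch named in the labels, over both genotypes. By this test 10 of 57 members changed (17.5%), against 23.7% of all genes tested by the same fit. Of these, 4 rose (Rab37, Rab20, Rab3a and Rab3b), or 7.02% against 8.95% of all genes, and 6 fell (Rab15, Rab3d, Rab40b, Rab8b, Rab6b and Rab23), or 10.5% against 14.7% of all genes. With median-of-ratios scaling 7 rose and 5 fell, against 11.1% and 12.7% of all genes, and with quantile normalization 6 rose and 4 fell, against 11.7% and 11.5% of all genes. With the experiments' genotypes paired by a block, 9 passed, against 24.7% of all genes, and Rab23 had a limma adjusted p of 0.0554 in place of 0.0499. The median over the 57 members was 0.01 on the log2 scale, against -0.03 over all genes tested. The experiments did not overlap in 36 members (63.2%), against 67.3% of all genes.

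Rab15 fell the furthest, by 0.85 ± 0.08 on the log2 scale (SE; limma adjusted p = 0.00264), or to 0.554 of its level in experiment 1. Its log2 difference was -0.98 in TCRb-/- and -0.73 in WT, so the fall was present in both genotypes. Rab40b fell by 0.47 ± 0.11 (adjusted p = 0.0219) and Rab3d by 0.52 ± 0.15 (adjusted p = 0.0414). Rab6b fell by 0.31 ± 0.07 (adjusted p = 0.0225), Rab8b by 0.33 ± 0.08 (adjusted p = 0.0213) and Rab23 by 0.28 ± 0.09 (adjusted p = 0.0499). Those last 3 fell nearly alike in the 2 genotypes, as in Rab8b with -0.34 in TCRb-/- and -0.32 in WT.

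Rab3a rose by 0.35 ± 0.07 (limma adjusted p = 0.0155), or 1.28-fold, and Rab3b by 0.25 ± 0.07 (adjusted p = 0.0322), or 1.19-fold. Rab37 rose by 0.86 ± 0.22 (adjusted p = 0.0272) and Rab20 by 0.85 ± 0.24 (adjusted p = 0.0386). For Rab37 the log2 difference was 1.29 in TCRb-/- and 0.43 in WT, and for Rab20 it was 1.07 and 0.62. Whether the 2 genotypes differ in these rises was not tested, since each difference rests on 1 library a side. Rab34 and Rab21, the next by unadjusted p, had fitted differences of 0.31 ± 0.10 (adjusted p = 0.0513) and 0.25 ± 0.08 (adjusted p = 0.0570).

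Over all tested members the sign of the experiment difference was the same in both genotypes in 42 of 57 (73.7%), against 77.3% of all genes. The difference was farther from 0 in TCRb-/- than in WT in 37 of 57 (64.9%), against 59.7% of all genes. As a description over the 57 members, Spearman's rho between the experiment difference in TCRb-/- and that in WT was 0.67, against 0.70 over all genes tested. The points of each genotype share their 2 libraries. By membrane, 3 secretory and synaptic Rabs rose and 1 fell of 8 tested, and 3 of the 9 plasma membrane and cilium Rabs fell (2 with the block), against 8.95% of all genes higher and 14.7% lower. Groups of this size are too small for a share to be read. There was 1 rise among the 8 early endosome Rabs, and 1 fall each among the 7 recycling endosome and the 15 endoplasmic reticulum and Golgi Rabs. None of the 8 late endosome and lysosome Rabs passed, of which Rab7b had the widest difference, -0.45.

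The count depended on single libraries. Without TCRb-/- replicate 2 only Rab15 passed (1 member, against 13.1% of all genes in the same fit). Without TCRb-/- replicate 1 there were 5 (10.1% of all genes), without WT replicate 1 there were 7 (11.8%) and without WT replicate 2 there were 11 (24.4%). Rab15 passed in all 4 of these fits.

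**Figure D4:**
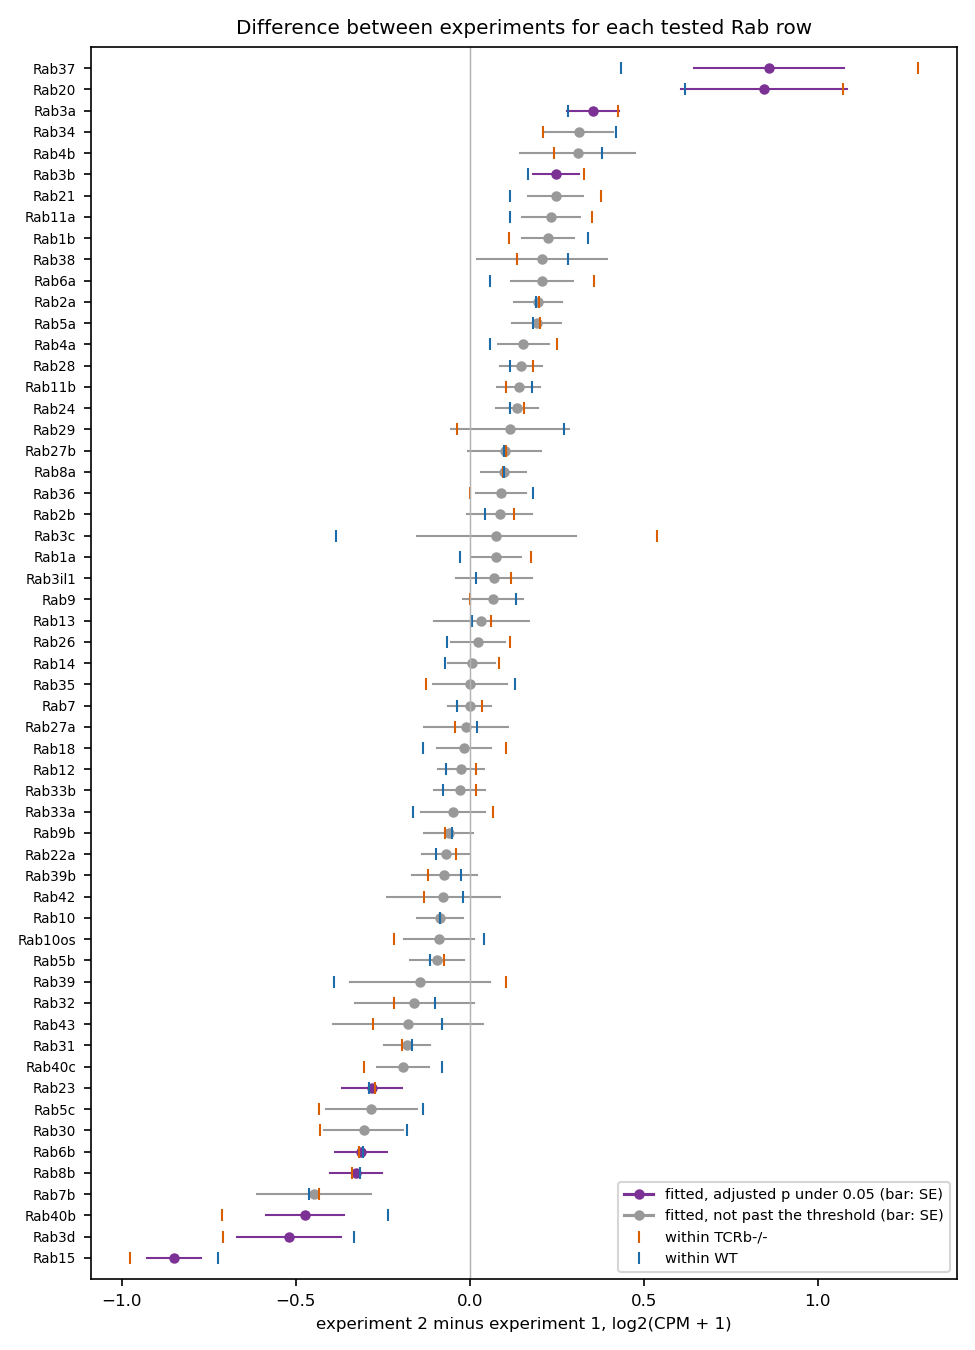
Fitted log2 difference in CPM + 1 between experiment 2 and experiment 1 for the 57 tested Rab rows, with the SE as a bar and the difference within each genotype as a tick. The 10 called members are coloured, with Rab37 (0.86) and Rab20 (0.85) at the top and Rab15 (-0.85) at the bottom.

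Of the 10 called members 4 ranked the libraries as summed tissue markers did. Rab15, Rab40b and Rab3d were highest in TCRb-/- replicate 1, then WT replicate 1, WT replicate 2 and TCRb-/- replicate 2, the same order as the summed striatum markers and the summed cortex and hippocampus markers (973, 472, 941 and 575 CPM). Rab20 had the order of the summed choroid plexus and thalamus markers, with TCRb-/- replicate 2 first and WT replicate 1 last. The other 6, Rab3a, Rab3b, Rab37, Rab6b, Rab8b and Rab23, had neither order. The first order was found in 12.9% and the second in 10.2% of all genes tested, against 4 (7.02%) and 5 (8.77%) of the 57 members. The 10 were selected for a difference between the experiments, which the marker sums also show. Matches among the 10 can therefore not be set against these shares. Between the experiments 8 of 8 striatum markers and 7 of 8 cortex and hippocampus markers fell, and 7 of 8 choroid plexus and 4 of 6 thalamus markers rose. The thalamus sum was 666, 1529, 642 and 1072 CPM. The pan-neuronal sum was 5583, 5953, 6132 and 5924 CPM, with 2 of 6 markers up and 2 down. Of the listed markers in these lists none was at 0 in all 4 libraries. The part of neighbouring tissue in the Rab differences was not tested.

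**Figure D5:**
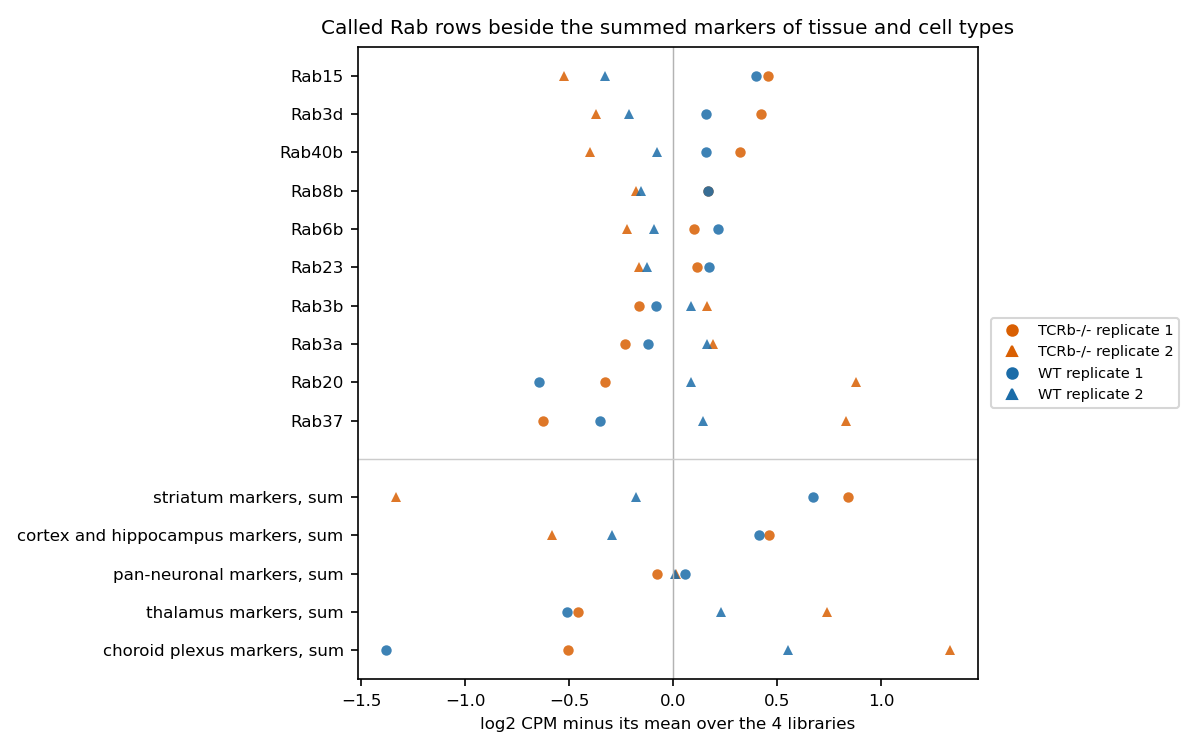
Log2 CPM of the 10 called Rab rows and of the summed markers of 5 tissue or cell classes, each as the difference from its own mean over the 4 libraries. Experiment 2 (triangles) lies below experiment 1 (circles) for 6 Rab rows and for striatum, cortex and hippocampus, and above it for 4 Rab rows, thalamus and choroid plexus.

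Sequences upstream of the start are shown for 5 of the called members, the endosomal Rab15 and Rab20 and the vesicle paralogues Rab3a, Rab3b and Rab3d. The last 3 belong to 1 subfamily and were called in different directions (Rab3a and Rab3b up, Rab3d down). Rab3d, at a mean of 8.28 CPM, passed the threshold in 8 of 14 fits with all libraries. Each comes from the 250 bases before the most upstream start of the gene in the RefSeq table (GRCm38.p6), 5′ to 3′ on the gene's strand. GENCODE places the last 29 of these bases for Rab15, 70 for Rab20, 24 for Rab3a, 7 for Rab3b and 9 for Rab3d in an exon of the gene, and those bases are not printed. GENCODE also starts Rab15 further upstream, at 76822908 on chromosome 12, so its window lies inside that gene model. Capitals mark matches on either strand to 4 motifs: the GC box GGGCGG, the TATA box TATAAA, the E-box palindrome CACGTG and the cAMP response element palindrome TGACGTCA. In Rab3b, 2 GC box matches overlap. The printed stretches are chr12:76822554-76822774 (minus strand) for Rab15, chr8:11478711-11478890 (minus strand) for Rab20, chr8:70754453-70754678 (plus strand) for Rab3a, chr4:108878820-108879062 (plus strand) for Rab3b and chr9:21918193-21918433 (minus strand) for Rab3d.
Rab15: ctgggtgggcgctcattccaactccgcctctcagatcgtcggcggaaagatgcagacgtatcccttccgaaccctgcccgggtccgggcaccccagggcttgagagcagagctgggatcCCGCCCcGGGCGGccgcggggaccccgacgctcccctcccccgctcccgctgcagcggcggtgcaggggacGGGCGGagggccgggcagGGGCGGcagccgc
Rab20: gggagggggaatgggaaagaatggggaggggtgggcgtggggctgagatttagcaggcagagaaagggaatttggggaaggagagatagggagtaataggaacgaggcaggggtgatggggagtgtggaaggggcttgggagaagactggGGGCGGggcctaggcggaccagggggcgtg
Rab3a: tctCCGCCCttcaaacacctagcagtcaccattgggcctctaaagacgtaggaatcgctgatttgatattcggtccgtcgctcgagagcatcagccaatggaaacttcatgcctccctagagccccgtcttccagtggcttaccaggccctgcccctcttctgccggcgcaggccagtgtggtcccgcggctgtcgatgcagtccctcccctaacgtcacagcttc
Rab3b: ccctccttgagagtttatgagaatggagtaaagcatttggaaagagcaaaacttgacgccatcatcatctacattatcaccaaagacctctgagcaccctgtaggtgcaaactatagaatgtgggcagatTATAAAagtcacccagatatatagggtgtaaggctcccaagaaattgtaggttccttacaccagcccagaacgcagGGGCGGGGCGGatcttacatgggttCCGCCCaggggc
Rab3d: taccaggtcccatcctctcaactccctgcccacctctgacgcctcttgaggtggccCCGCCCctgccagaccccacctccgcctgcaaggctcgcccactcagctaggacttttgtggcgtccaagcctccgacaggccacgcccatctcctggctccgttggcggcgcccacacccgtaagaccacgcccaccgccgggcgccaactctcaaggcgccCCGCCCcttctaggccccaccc

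Over the 250-base windows, G and C made up 75.2% for Rab15, 65.2% for Rab20, 58.8% for Rab3a, 48.8% for Rab3b and 69.2% for Rab3d. The 5 genes were picked, so no order by direction of change is read from them. The median was 60.6% over the 64 windows of the 48 Rab members in the table and 52.4% over all 32851 windows. The GC box occurred 4 times in the Rab15 window, 4 times in Rab3b, 2 times each in Rab3a and Rab3d and 1 time in Rab20, with 1 match each of Rab3a and Rab3b in the bases not printed. It was found in 44 of the 64 Rab windows and in 32.7% of all windows. Rab3b alone of the 5 shown held a TATA box, which was in 5 of the Rab windows and 12.4% of all windows, and Rab20 alone held an E-box palindrome (in the bases not printed), which was in 8 of the Rab windows and 6.02% of all windows. The cAMP response element palindrome was in 1 Rab window, that of Rab5a, and in 1.55% of all windows.

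The proteins that load, unload and read Rab GTPases were followed on a list of 127 genes, of which 125 were listed and 122 tested. Rab3il1 is on this list too, at 16.6, 18.2, 16.4 and 16.6 CPM. By genotype 0 of 122 passed, with a limma adjusted p under 0.05 in 0% of all genes, and 0 had an unadjusted p under 0.05. With precision weights (voom) the count was also 0. When the experiment was entered as a block in limma, 0 passed and 1 (Tbc1d2) had an unadjusted p under 0.05, against 5.64% of all genes. The median log2 difference was 0.00, the same as over all genes. The smallest unadjusted p belonged to Tbc1d2, a GTPase-activating protein for Rab7, at 3.54, 4.35, 1.95 and 3.00 CPM. It had a log2 difference of 0.52 ± 0.24 (SE; limma adjusted p = 1.00). Both TCRb-/- libraries exceeded both WT libraries. Next were Dennd1b, an exchange factor for Rab35, at 7.0, 7.5, 5.42 and 5.77 CPM, and Rin3, an exchange factor for Rab5 and Rab31, at 1.67, 1.15, 0.763 and 0.895 CPM.

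Between the experiments 36 of the 122 regulators and effectors passed (29.5%), against 23.7% of all genes, with 4 higher and 32 lower, and the median was -0.16 against -0.03 over all genes. GTPase-activating proteins fell in 12 of 36 (33.3%) and exchange factors in 5 of 32 (15.6%), with no rise in either class. Over all genes 14.7% were lower and 8.95% higher. The classes were not compared by a test, and no count by class was made with gene length taken into account. Effectors fell in 14 of 44 and rose in 2, and of the 7 prenylation and membrane extraction genes 2 rose and none fell. Rin1, a brain-enriched exchange factor for Rab5, was read at 99.8, 39.1, 89.6 and 51.2 CPM and fell by 1.06 ± 0.12 on the log2 scale (SE; limma adjusted p = 0.00501). Tbc1d8, of the GTPase-activating family, fell by 0.92 ± 0.13 (adjusted p = 0.00589) and Myo5b, the motor that binds Rab11, by 0.90 ± 0.10 (adjusted p = 0.00386). Rises were seen in Sytl4, a granule effector of Rab27 and Rab3, read at 5.98, 10.9, 7.59 and 13.5 CPM (0.76 ± 0.17, adjusted p = 0.0176). Rph3al, another Rab3 and Rab27 effector, rose by 0.63 ± 0.15 (adjusted p = 0.0252) and Rabac1, a prenylated Rab acceptor, by 0.33 ± 0.07 (adjusted p = 0.0162).

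Gene length moved with the differences. The median exon length was 3728 bases over the tested Rab members, 6757 bases over the regulators and effectors and 4463 bases over all genes with a length. As a description across genes, Spearman's rho of the experiment difference with exon length was -0.21 over the 57 members and -0.40 over 13552 genes. For the genotype difference it was -0.31 over the members and -0.14 over all genes. With the length trend removed from each library, 0 members were called by genotype. Between experiments 7 members passed, against 16.8% of all genes: Rab37, Rab3b, Rab5a, Rab11b and Rab21 higher, and Rab15 and Rab40b lower. Of these, 4 were among the 10 of the first fit. Of the 122 regulators and effectors 19 passed with the trend removed, also against 16.8% of all genes. There were 6 higher and 13 lower, against 8.09% and 8.66% of all genes, and the median was -0.04.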

How the data were processed

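The authors deposited 1 file per library, with symbols and values on a log2 scale, per the file headers. Each value is the log2 of CPM after adding 0.5 to a gene's reads and 1 to the total. Reads were aligned and counted against mm10 with HISAT2 2.1.0, SAMtools 1.3 and HTSeq 0.9.1, and R 4.0.5 and limma 3.46.0 are also named, per the submitters' processing notes. Whole reads came back for 100% of values within 0.001 reads. The 17 spike-in rows were left out.

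The 13912 genes averaging 1 CPM or more were fitted as log2(CPM + 1) with limma 3.58.1 in R 4.3.3 (trended moderation). P-values are two-sided and were adjusted by Benjamini-Hochberg, and those under 0.05 were called. Genotype, or experiment, was the only term. The labels name the experiment as the batch, so equal replicate numbers pair libraries; deviations from the genotype mean correlated across genes (r = 0.719). Libraries of a genotype differed beyond sampling noise (chi-square per degree of freedom 52.1 and 30.3). A count of 0 allows up to 3 reads, or 0.114 to 0.150 CPM, and covers counting error only. Exon lengths and overlaps came from GENCODE M21 (GRCm38), promoters from RefSeq. Alternatives were other pseudocounts, filters, scalings, weights, the block, a length correction and leaving out each library. In fits with 1 term, p-values measure the spread between the 2 pools of a genotype, or, for experiments, between the TCRb-/- and the WT pool of an experiment. With the block, the spread is how far the genotype difference varies between the 2 experiments. In both, the spread is moderated over all genes.

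The family, its membrane groups and the gene lists were chosen with earlier results of these data known. Named with all 4 values were a set of well-studied members, up to 4 members with the widest genotype differences without overlap and with 1 sign in each direction, the largest called rises and falls (filled by unadjusted p), and the 5 highest and lowest per length; of regulators, the 3 smallest p by genotype and 3 largest called rises and falls. Other members are named only to complete a count or a range. Fits needing a count model were not run on these values.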

Additional observations from a re-analysis of the deposited data

Results flagged for a closer look

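Rab37, a Rab of secretory granules, differed between the genotypes in opposite directions in the 2 experiments. Its log2 difference, TCRb-/- minus WT, was -0.23 in experiment 1 (4.80 against 5.80 CPM) and 0.62 in experiment 2 (13.2 against 8.18 CPM). Each value rests on 1 library a side, and the difference between the experiments was not tested. Of the 57 tested members 30 had opposite signs in the 2 experiments, and Rab37 was the only one in which both differences reached 0.2, a minimum chosen after the values were seen.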

How the results depend on the processing

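No called difference reversed in the 477 values recomputed with all libraries, and 419 of them kept their direction and side of the threshold. With single libraries left out, 105 of 140 were kept and 1 was counted as reversed, Rab20 by genotype (-0.0474 without TCRb-/- replicate 2, up to 1.03 without TCRb-/- replicate 1). Those fits hold no term for the experiment, so the experiment difference of Rab20 enters both values. Within experiment 1 Rab20 was higher in TCRb-/- by 0.26. The small family medians also changed sign and were not counted as reversed. They ran from -0.02 to 0.01 by genotype and from -0.02 to 0.03 between experiments. By genotype no member was called in any alternative. Between experiments the members called numbered 1 without the variance trend and 0 with the replicate block and no trend, and 1 to 11 with single libraries left out; regulators and effectors numbered 9, 0 and 15 to 33 in those fits, and 19 with the length trend removed. The share of all genes called between experiments fell too, from 23.7% in the first fit to 4.52% without the variance trend. It was 0% with the replicate block and no trend, and 16.8% with the length trend removed. The replicate block alone gave 9 members and 37 regulators and effectors, against 24.7% of all genes. Among named genes the block changed the call of Rab23. Leaving out a library leaves 1 in its arm, assumed to vary like the others. Fits that combine the block with another choice were added after seeing the data. Members under about 5 CPM rest on the shallowest counts.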
